A study of Mus musculus with 8 samples.

Results

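Vascular smooth muscle cells (VSMCs) were examined in single-cell RNA sequencing of the left ventricle of sham-operated mice and of mice with ischemia-reperfusion (IR) injury. Of 19637 barcodes that passed quality limits in both libraries, 287 were VSMCs, 214 of 11377 in sham and 73 of 8260 in IR. The members were chosen by their own transcripts, counted as unique molecular identifiers (UMIs), where 1 UMI is 1 captured RNA molecule. A barcode needed at least 200 genes, at most 30% mitochondrial UMIs, at least 1 UMI of Myh11 and at least 0.5% of its UMIs on Acta2, Myh11 and Tagln together. It was left out if Dcn and Col3a1 of fibroblasts reached 0.3% of UMIs, the C1q genes of macrophages 0.1%, or S100a8 and S100a9 of neutrophils 1%. More than 1 UMI of endothelial Cdh5, or at least 4 UMIs of the pericyte genes Kcnj8, Vtn, Abcc9 and Colec11, also excluded a barcode. The levels of these 15 genes were used by the selection and are given only as a description.

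The mice were male, 10 to 12 weeks old and on the C57BL/6 background. In the IR group the left anterior descending coronary artery was tied off for 30 min and then released, and sham mice had the same surgery without the ligation. The methods place both groups at 6 h after surgery, while the sample labels give 6 h for IR and 0 h for sham, and which holds for sham is not settled. Each condition has 4 labelled samples, each a pool of 3 hearts, but no barcode names its sample. The cells of a condition were therefore handled as 1 library, so differences between conditions lack replicates and are given without p values. The 95% intervals below cover counting error only. The libraries shared 30 barcodes, 0 of them members.

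VSMCs form the wall of coronary arteries and arterioles. They contract when calcium activates myosin light chain kinase, which phosphorylates the myosin light chain and lets smooth muscle myosin pull on actin. Their contractile genes are driven by serum response factor with its partner myocardin, which bind a short DNA element called the CArG box. After vessel injury VSMCs are known to lower these genes and to raise genes of matrix, migration and inflammation, a change called phenotypic modulation. Pericytes are the related mural cells of capillaries, and hold little of the contractile apparatus.

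Levels are given as CPM, the UMIs of a gene in all members of a library scaled to a total of 1000000 UMIs. The label was checked on smooth muscle markers that the selection did not use. The 12 such markers, among them Cnn1, Myl9, Tpm2 and Lmod1, summed to 26128 CPM in sham VSMCs and 14391 CPM in IR VSMCs. The same sum was 1721 and 1138 CPM in pericytes of the same libraries, and 32 and 25 CPM in B cells, which should lack these genes and show the level of free RNA. Both classes were chosen with less than 0.5% of UMIs on Acta2, Myh11 and Tagln, and B cells with 0 UMIs of Myh11. Their sums partly follow from that choice. The members thus carried the wider smooth muscle program in both libraries. Of the genes that chose the members, Acta2 stood at 20974 CPM in sham and 9250 CPM in IR, Tagln at 18657 and 8909 CPM, and Myh11 at 4342 and 2687 CPM. Per cell, these genes together took 0.516% to 11% of UMIs in sham (median 3.47%) and 0.549% to 5.12% in IR (median 1.76%). Just outside the limit lay cells at 0.361% in sham and 0.439% in IR, and 23 sham and 25 IR barcodes were left out by this limit alone.

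VSMCs made up 1.88% of passing barcodes in sham (exact Clopper-Pearson interval 1.64% to 2.15%) and 0.884% in IR (0.693% to 1.11%). These are shares of all captured cells, so a gain in other cells and a loss of VSMCs cannot be told apart. The counts also depend on the 0.5% limit on the selection genes, whose median share was lower in IR members. That limit alone left out 23 sham barcodes beside 214 members and 25 IR barcodes beside 73 members. Its part in the lower IR share was not tested. The members held 933418 UMIs in sham and 680639 in IR. IR members were deeper, with a median of 8876 UMIs and 2653 genes per cell against 3885 UMIs and 1558.5 genes in sham. More than 2500 genes were found in 42 IR members (57.5%) and 12 sham members (5.61%). The median mitochondrial share was 14.3% in IR and 9.21% in sham, and both depth and mitochondrial share therefore moved with the condition. Fibroblasts differed in depth the same way, with medians of 13736 UMIs in IR and 5211 in sham. The part of depth in the results below was not tested beyond the alternatives given at the end.

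Markers of other cells were also counted in the members. Macrophage markers other than the C1q genes summed to 1263 CPM in sham VSMCs and 259 CPM in IR VSMCs, and hemoglobin and other red cell genes to 925 and 68 CPM. Neutrophil markers stood at 85 CPM in sham and 435 CPM in IR, cardiomyocyte markers at 331 and 97 CPM, and fibroblast markers outside the selection at 1003 and 992 CPM. The largest of these sums was that of 7 pericyte markers outside the selection, Rgs5 and Pdgfrb among them, at 3079 CPM in sham and 4437 CPM in IR, against 15690 and 14438 CPM in pericytes. A sum per cell was taken over markers of endothelial cells, cardiomyocytes, macrophages, neutrophils, lymphocytes, Schwann cells, mesothelium and red cells. It left out fibroblast and pericyte markers, the selection genes, and Fabp4, Esam, Cd14, Il1b, G0s2 and Tnnt2. In sham, 10 of 214 members had at least 0.5% of their UMIs on this reduced set, up to 5.27%, and 0 of 73 IR members did. Of the endothelial markers, Pecam1, Tie1, Emcn, Egfl7 and Ly6c1 were at 0 UMIs in IR members. The endothelial sum of 645 CPM in sham and 1478 CPM in IR was mostly Fabp4, a fatty acid carrier that pericytes also held.

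**Figure D1:**
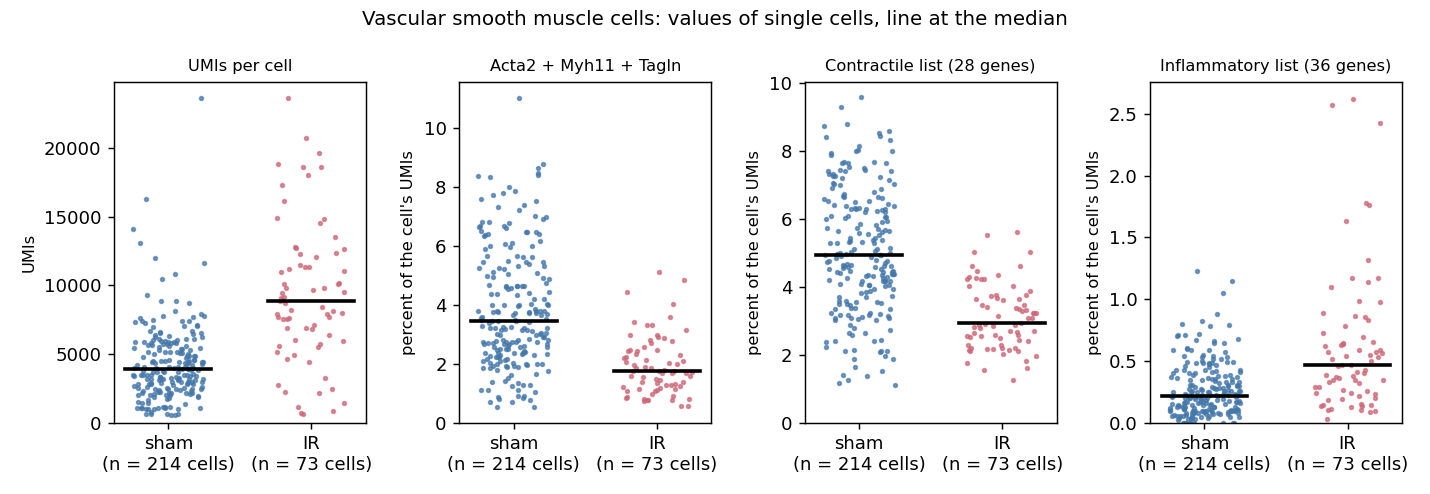
Values of single VSMCs in sham (blue, 214 cells) and IR (red, 73 cells), with a line at the median, for UMIs per cell and for the percent of a cell's UMIs on the 3 selection genes, on 28 contractile genes and on the 36 listed inflammatory genes (Cebpd was not used here). IR cells had more UMIs, and the median contractile share was 4.92% in sham and 2.92% in IR, with overlapping ranges.

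Across 6967 genes with at least 20 UMIs in the members of both libraries together, 673 (9.66%) were at least 2-fold higher in IR VSMCs and 672 (9.65%) at least 2-fold lower, and the median log2 ratio of IR over sham was 0.02. Gene lists are described against this background, by how many of their measured genes lay past 2-fold. By list median, the contractile genes lay lowest and the inflammatory genes highest. By the share past 2-fold, heat shock genes had the most lower genes, 36.4% against 28.6% of contractile genes. Growth factor, vasoactive and matrix genes lay past 2-fold in both directions. The share of lower genes was 13.3% in the growth factor and 10.3% in the matrix list, near the 9.65% of all genes.

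**Figure D2:**
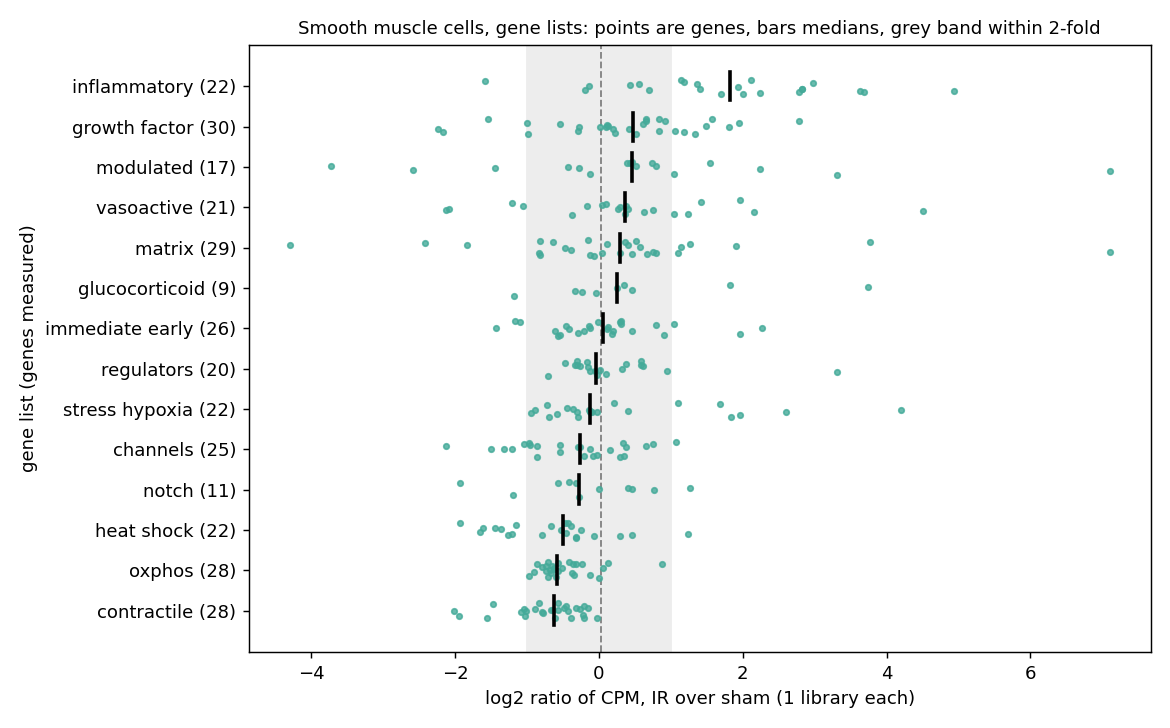
Log2 ratio of CPM, IR over sham, for each measured gene of 14 lists in VSMCs (points), with list medians as bars, the median of all genes as a dashed line and a grey band within 2-fold. The contractile median was -0.63 and the inflammatory median 1.82.

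With all members, all 28 measured contractile genes were below 0 on the log2 scale, with a median of -0.63. At least 2-fold lower were 8 of 28, against 9.65% of all genes, and 0 were at least 2-fold higher, against 9.66%. The same 28 genes had medians of -0.18 in pericytes, -0.30 in fibroblasts and 0.17 in endothelial cells. In single VSMCs the whole list took 1.12% to 9.59% of UMIs in sham (median 4.92%) and 1.25% to 5.59% in IR (median 2.92%), so the ranges overlapped while the median was lower in IR.

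Cnn1 (chr9:22099216-22109630, GRCm38), which encodes calponin, an actin-binding brake on smooth muscle contraction, was at 971 CPM in sham and 251 CPM in IR, 3.86-fold lower (log2 ratio -1.95, -2.19 to -1.71). Itga8, the integrin α8 subunit that anchors smooth muscle to matrix, was at 166 and 41.1 CPM (-2.01, -2.65 to -1.43). These were the contractile genes with the largest relative difference. Sorbs2 and Synpo2, adaptors of actin filaments and Z-disc-like structures, were at 1228 and 441 CPM (-1.48) and at 328 and 112 CPM (-1.55). Csrp1, a LIM protein of the actin cytoskeleton, was at 1749 and 824 CPM (-1.09), and Smtn, smoothelin of contractile VSMCs, at 505 and 247 CPM (-1.03). The myosin regulatory light chain and its control belonged to the same set. Myl9, the light chain that the kinase phosphorylates, was at 8041 and 3908 CPM (-1.04, -1.11 to -0.98), and Ppp1r14a, which inhibits the phosphatase that removes the phosphate, at 1418 and 699 CPM (-1.02).

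Other contractile genes differed less. Tpm2, a tropomyosin that lies along actin, was at 10233 and 5548 CPM (-0.88), Tpm1 at 5018 and 3229 CPM (-0.64), and the intermediate filament gene Des at 1092 and 736 CPM (-0.57). Lmod1, which nucleates actin filaments in smooth muscle, was at 740 and 530 CPM (-0.48). The kinase itself was near its sham level, with Mylk at 2039 and 1765 CPM (-0.21, -0.31 to -0.10). Mustn1, a small nuclear protein of muscle, was at 2018 CPM in sham and 1979 CPM in IR (-0.03, -0.13 to 0.07), the smallest difference of the list. The sham cluster led by Ogn, described further on, was left out after the values were seen. Its cells had a median of 6.26% of UMIs on the selection genes, against 3.47% over all sham members. No IR cells were left out, and the IR group led by Ptgis was kept, so the libraries were not limited alike. Synpo2, Sorbs2, Csrp1, Myl9, Smtn and Ppp1r14a then came within 2-fold, while Cnn1 and Itga8 did not. Actg2 (0.29), Pdlim7 (0.28), Synm (0.15), Mustn1 (0.07), Actn1 (0.02) and Cald1 (0.01) then lay above 0. The list median stayed below 0. With all members, the ratios within the contractile list ran from about 4-fold lower to no difference beyond counting error.

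The cells were also compared at equal depth, as the share expected to hold at least 1 UMI of a gene after thinning each cell to 1000 UMIs (205 sham and 70 IR members reached this depth). Cnn1 was expected in 37.6% of sham VSMCs (31.0% to 44.7%) and 17.7% of IR VSMCs (9.60% to 28.7%). Without thinning, 58.4% and 52.1% of cells held a Cnn1 UMI, and thinned B cells, whose full median depth was 2607 and 3469 UMIs, stood at 0.145% and 0.0395%. Myl9, by contrast, was expected in 97.0% and 89.1% of thinned VSMCs, so most IR cells held it (99.5% and 98.6% without thinning). Its per-cell share of UMIs had a median of 0.705% in sham and 0.345% in IR.

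The promoter of Myl9 is shown because it is the most abundant contractile gene past 2-fold and has a CArG box close to its start. The sequence is the 250 bases before the RefSeq start (chr2:156775214-156775463, plus strand, GRCm38.p6), written 5′ to 3′ along the gene, with the match in capitals, 151 bases before the start.
Myl9: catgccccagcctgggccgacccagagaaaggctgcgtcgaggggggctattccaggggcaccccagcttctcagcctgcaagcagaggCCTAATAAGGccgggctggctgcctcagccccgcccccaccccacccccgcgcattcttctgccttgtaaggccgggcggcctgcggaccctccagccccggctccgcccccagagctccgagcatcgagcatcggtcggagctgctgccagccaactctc
A CArG box on either strand was found in this window for 3 of 26 contractile genes with a window (Myl6, Myl9 and Vcl, 11.5%) and for 1.62% of 27025 genes of all kinds. A match is a run of letters and was not tested for binding.

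The regulator list holds factors that drive the contractile program and others, such as Klf4, that repress it. Of 20 measured regulators, 8 reached 100 CPM, and serum response factor and myocardin were not among the 8. The median half-width of the intervals was 0.60 on the log2 scale, which leaves small differences undecided. At least 2-fold higher was 1 regulator (5%, against 9.66% of all genes), 0 were at least 2-fold lower (against 9.65%), and the list median was -0.04. Mef2a, a muscle transcription factor, was at 177 CPM in sham and 170 CPM in IR (-0.05, -0.41 to 0.30), and Klf4, a repressor of contractile genes in modulated VSMCs, at 137 and 126 CPM (-0.12, -0.53 to 0.29). The regulator at least 2-fold higher was Runx1, a factor known from osteogenic change of VSMCs and from blood cells. It had 15 CPM in sham and 148 CPM in IR (14 and 101 UMIs, log2 ratio 3.31, 2.49 to 4.23). B cells held 103 and 108 CPM of Runx1, so the gene was about as abundant in IR VSMCs as in B cells.

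Genes of calcium handling and ion channels had a median of -0.27. At least 2-fold lower were 5 of 25 (20%, against 9.65% of all genes), and 1 was higher (4%, against 9.66%). Pln, phospholamban, which restrains the calcium pump of the sarcoplasmic reticulum, was at 844 CPM in sham and 298 CPM in IR (-1.50, -1.73 to -1.28). At equal depth Pln was expected in 53.5% of sham VSMCs and 22.7% of IR VSMCs, with 0.595% and 0.507% in B cells, and 85.0% and 54.8% of VSMCs held it without thinning. The pump that it restrains, Atp2a2, was at 647 and 530 CPM (-0.29, -0.48 to -0.10), so the ratio of Pln to its target was lower in IR cells. Atp1b2, a sodium pump subunit, was at 282 and 113 CPM (-1.32), and Kcnmb1, the smooth muscle subunit of the large-conductance potassium channel, at 138 and 76.4 CPM (-0.86). Ano1, a calcium-activated chloride channel, went the other way, at 75 and 118 CPM (0.65, 0.17 to 1.13).

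Genes of vasoactive signalling lay past 2-fold in both directions, with a median of 0.36. Of 21 measured, 6 were at least 2-fold higher (28.6%, against 9.66% of all genes) and 4 lower (19.0%, against 9.65%). Ramp1, a subunit of the receptor for calcitonin gene-related peptide, was at 311 and 73.5 CPM (-2.08, -2.54 to -1.64), Gucy1a3, a subunit of the nitric oxide receptor guanylate cyclase, at 660 and 285 CPM (-1.21, -1.45 to -0.98), and Pde5a, which degrades cyclic GMP, at 134 and 64.6 CPM (-1.05, -1.58 to -0.54). Among members with 3000 to 9000 UMIs, a limit added after the values were seen, Gucy1a3 had -0.43, Pde5a -0.37 and Ramp1 -2.13. Gucy1b3, the other subunit of the cyclase, was at 426 and 329 CPM (-0.37), a smaller difference than for its partner. Pde1a, a calcium-activated phosphodiesterase, was higher, at 101 CPM in sham and 448 CPM in IR (2.15, 1.82 to 2.50), and Rock2, a kinase that raises calcium sensitivity, was at 160 and 376 CPM (1.24). Rgs5, a brake on G-protein signalling that is abundant in mural cells, was at 1853 and 3119 CPM (0.75, 0.66 to 0.84).

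Of 11 measured Notch genes, whose signal from endothelial cells maintains mural cells, 2 were at least 2-fold lower and 1 higher, with a median of -0.28. These shares were 18.2% and 9.09%, against 9.65% and 9.66% of all genes. Notch3, the main receptor of VSMCs, was at 444 and 364 CPM (-0.28, -0.52 to -0.05), and its target Heyl at 132 and 106 CPM (-0.32, -0.76 to 0.11). Nrip2, a nuclear receptor-interacting protein placed in this list, was at 296 and 129 CPM (-1.19). Jag1, a ligand, was at 117 and 198 CPM (0.76), and Notch1, which is more typical of endothelium, at 42.9 and 103 CPM (1.26). The list as a whole therefore held no common direction.

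The inflammatory list stood highest, with 16 of 22 measured genes at least 2-fold higher in IR VSMCs, 1 lower and a median of 1.82, against 9.66% of all genes higher. The medians of the same genes were 1.57 in pericytes, 0.90 in fibroblasts and 1.06 in endothelial cells. Il6 (chr5:30013114-30019981, GRCm38), the cytokine interleukin-6, had 9 UMIs in sham and 201 in IR, or 9.64 and 295 CPM (log2 ratio 4.94, 3.98 to 6.09). B cells held 4.55 and 19.4 CPM of Il6, so the IR level in VSMCs was above that of free RNA. The higher IR level was not particular to VSMCs. Il6 was at 2.55 and 460 CPM in pericytes, 108 and 261 CPM in fibroblasts and 3.19 and 92.1 CPM in endothelial cells. At equal depth Il6 was expected in 0.750% of sham VSMCs and 13.2% of IR VSMCs (6.26% to 23.4%), with 1.25% in IR B cells, and without thinning a UMI was found in 1.87% and 32.9%. Cxcl1, a neutrophil attractant, was at 97.5 CPM in sham and 1252 CPM in IR (3.68, 3.37 to 4.01), against 18.4 and 176 CPM in B cells.

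For some chemokines the free RNA was as high as the VSMC value. Cxcl2, another neutrophil attractant, was at 73.9 and 918 CPM in VSMCs (3.63) but at 94.8 and 1495 CPM in B cells, and a single cell held 39.7% of its UMIs in IR. Ccl2, a monocyte attractant, was at 36.4 and 172 CPM in VSMCs and at 34.4 and 697 CPM in B cells, and in pericytes at 66.2 and 4154 CPM. The VSMC values of Cxcl2 and Ccl2 were therefore at or below the level of background and are not read as expression. Osmr and Il1r1, both receptors, lay above the B-cell level. Osmr, the oncostatin M receptor, was at 62.1 and 248 CPM (2.0, 1.56 to 2.45) against 0.909 and 4.24 CPM in B cells, and Il1r1, the interleukin-1 receptor, at 41.8 and 160 CPM (1.94, 1.40 to 2.51) against 0.546 and 6.36 CPM. Stat3, which relays interleukin-6 family signals, was at 144 and 381 CPM (1.41, 1.10 to 1.72), with 97.7 and 240 CPM in B cells. Nfkbia, the inhibitor and target of NF-κB, was at 235 and 761 CPM (1.70, 1.47 to 1.93), but B cells held 433 and 743 CPM, so its IR level was close to theirs. Cebpb, a transcription factor of the acute phase, was at 1259 and 1145 CPM (-0.14), and Socs3, a feedback inhibitor of Stat3, at 448 and 605 CPM (0.43).

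Neutrophil markers moved with the list, at 85 CPM in sham and 435 CPM in IR VSMCs, and their part in these values was not tested.

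The promoters of Il6 and Cxcl1 are shown because these genes had large ratios above the B-cell level, and the promoter of Nfkbia because it reports NF-κB activity. Each is the 250 bases before the RefSeq start in GRCm38.p6, 5′ to 3′ along the gene, with matches to an NF-κB type motif in capitals. The motif is GGGA, any 2 bases and TTCC, searched on both strands. The windows are chr5:30012864-30013113, plus strand for Il6, chr5:90890995-90891244, plus strand for Cxcl1, and chr12:55492648-55492897, minus strand for Nfkbia.
Il6: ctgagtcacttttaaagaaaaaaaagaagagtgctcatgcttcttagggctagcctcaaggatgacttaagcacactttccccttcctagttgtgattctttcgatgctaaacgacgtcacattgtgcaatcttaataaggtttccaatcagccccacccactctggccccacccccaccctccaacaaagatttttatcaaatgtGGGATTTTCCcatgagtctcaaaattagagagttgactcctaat
Cxcl1: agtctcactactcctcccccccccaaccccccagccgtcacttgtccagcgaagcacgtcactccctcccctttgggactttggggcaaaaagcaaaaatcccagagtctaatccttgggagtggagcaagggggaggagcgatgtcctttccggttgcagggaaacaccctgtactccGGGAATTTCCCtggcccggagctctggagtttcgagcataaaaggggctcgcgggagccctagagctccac
Nfkbia: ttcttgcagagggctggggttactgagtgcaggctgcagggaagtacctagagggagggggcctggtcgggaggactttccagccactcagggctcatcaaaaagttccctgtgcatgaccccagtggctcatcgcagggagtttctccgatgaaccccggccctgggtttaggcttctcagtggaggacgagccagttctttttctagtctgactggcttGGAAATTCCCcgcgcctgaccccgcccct
The match ended 34 bases before the start in Il6 and 19 bases before it in Nfkbia. In Cxcl1 the capitals hold overlapping matches, 1 on each strand, 60 bases before the start. The motif occurred in 6 of 27 inflammatory genes with a window (Il6, Cxcl1, Cxcl2, Cxcl10, Nfkbia and Csf1, 22.2%) and in 1.36% of genes of all kinds. Whether a factor binds these letters in VSMCs was not measured.

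Stress genes were led by metallothioneins, small proteins that bind zinc and other metals. Mt1 was at 790 CPM in sham and 4768 CPM in IR (2.59, 2.48 to 2.71), and Mt2 at 64.3 and 1181 CPM (4.20, 3.82 to 4.60). B cells held 68.4 and 308 CPM of Mt1 and 10.0 and 202 CPM of Mt2. Per cell, Mt1 took 0% to 0.992% of UMIs in sham (median 0.0309%) and 0% to 1.81% in IR (median 0.260%). Mt2 was expected in 3.97% of sham VSMCs and 43.7% of IR VSMCs at equal depth, with 8.0% in IR B cells, and without thinning 10.3% and 71.2% of VSMCs held it. The difference thus spread over many cells. Hif1a, the oxygen-regulated transcription factor, was at 153 and 548 CPM (1.84, 1.56 to 2.13). Glycolytic genes that it is known to drive did not share this, with Ldha at 313 and 307 CPM (-0.03) and Gapdh at 1532 and 1250 CPM (-0.29). Over the 22 measured stress and hypoxia genes, 6 were at least 2-fold higher (27.3%, against 9.66% of all genes) and 0 lower (against 9.65%). The list median was -0.12.

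Respiratory chain genes of the nucleus lay low with little spread, in cells whose mitochondrial UMI share was higher in IR. Their median was -0.59 over 28 genes, with 25 below 0 and 0 past 2-fold in either direction, and it was -0.29 in pericytes, -0.12 in fibroblasts and -0.16 in endothelial cells. Ndufa4 was at 972 and 497 CPM (-0.97), Cox8a at 2976 and 1590 CPM (-0.90) and Cox4i1 at 1847 and 1222 CPM (-0.60).

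Heat shock genes had a median of -0.50. Of 22 measured, 8 were at least 2-fold lower (36.4%, against 9.65% of all genes) and 1 higher (4.55%, against 9.66%). Hspa8, the constitutive heat shock cognate protein, was at 2727 and 1227 CPM (-1.15, -1.27 to -1.04), and its partner Hsph1 at 179 and 47.0 CPM (-1.93). Small heat shock proteins of muscle were among the lower genes, with Cryab at 702 and 272 CPM (-1.37) and Hspb2 at 302 and 98.4 CPM (-1.62). Hspb7, another muscle member, was higher at 78.2 and 184 CPM (1.23), while the inducible Hspa1a, at 397 and 486 CPM (0.29), and Hspb1, at 3601 and 2890 CPM (-0.32), stayed within 2-fold.

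Immediate early genes, which enzymatic dissociation of tissue is known to induce, had a median of 0.05. Of 26 measured, 3 were at least 2-fold higher and 3 lower (11.5% each), near the 9.66% and 9.65% of all genes. Fos was at 3900 and 3178 CPM (-0.30), Junb at 3145 and 2849 CPM (-0.14), Jun at 1763 and 826 CPM (-1.09), Atf3 at 733 and 325 CPM (-1.17) and Klf2, also a gene of B cells, at 644 and 239 CPM (-1.43). Fosl2 was higher at 148 and 306 CPM (1.05). In fibroblasts of the same libraries Atf3 had a ratio of -1.37 and Jun of -1.10, and in pericytes they had 1.41 and -0.28, so Atf3 pointed in opposite directions in the related mural cells. The difference between cell types was not tested.

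Matrix genes had a median of 0.30. Of 29 measured, 6 were at least 2-fold higher (20.7%, against 9.66% of all genes) and 3 lower (10.3%, against 9.65%). Eln, elastin of the arterial wall, was at 226 CPM in sham and 63.2 CPM in IR (-1.84, -2.35 to -1.36). Timp1 (chrX:20870166-20874735, GRCm38), an inhibitor of matrix metalloproteinases, had 2 UMIs in sham and 200 in IR (294 CPM in IR; log2 ratio 7.10, 5.23 to 10.16), and B cells reached 81.8 CPM in IR. It was expected in 14.8% of thinned IR VSMCs and 2.74% of thinned IR B cells, so it stood above the free RNA in IR, and without thinning 0.935% and 47.9% of sham and IR VSMCs held it. Timp1 was also at 0 and 193 CPM in sham and IR pericytes, 124 and 2343 CPM in fibroblasts and 11.7 and 61.8 CPM in endothelial cells. Adamts4, a protease of proteoglycans, was at 31.1 and 422 CPM (3.76, 3.21 to 4.37) with 0.182 and 1.82 CPM in B cells, and Emilin1, an elastic fibre glycoprotein, at 94.3 and 354 CPM (1.91, 1.55 to 2.28). Adamts4 was also higher in IR pericytes, at 11.9 and 207 CPM (4.13), and in IR endothelial cells, at 7.45 and 136 CPM (4.19). In IR fibroblasts it was lower, at 62.5 and 26.3 CPM (-1.25). The basement membrane gene Col4a1 was at 492 and 729 CPM (0.57), Bgn at 666 and 426 CPM (-0.65) and Sparc at 981 and 708 CPM (-0.47).

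Of 17 measured genes of modulated VSMCs, 5 were at least 2-fold higher (29.4%, against 9.66% of all genes) and 3 lower (17.6%, against 9.65%). Their median was 0.47. Tpm4, a tropomyosin of non-muscle and modulated cells, was at 119 and 347 CPM (1.54, 1.21 to 1.88), and Anxa2, a calcium-binding membrane protein, at 142 and 294 CPM (1.04). Vim, vimentin, was at 1736 and 1438 CPM (-0.27). S100a4 and Ly6a were lower, at 106 and 17.6 CPM and at 117 and 8.82 CPM, and B cells held more of each than sham VSMCs did, with 308 and 988 CPM in sham. The list shares Timp1 and Runx1 with the lists above.

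Growth factor genes had a median of 0.47. Of 30 measured, 8 were at least 2-fold higher (26.7%, against 9.66% of all genes) and 4 lower (13.3%, against 9.65%). Pdgfa, a growth factor for mesenchymal cells, was at 238 CPM in sham and 836 CPM in IR (1.81, 1.59 to 2.04), and Pdgfrb, the receptor typical of mural cells, at 216 and 450 CPM (1.05, 0.79 to 1.32). B cells held 1.64 and 3.94 CPM of Pdgfa and 2.91 and 2.73 CPM of Pdgfrb, far below both VSMC values. Angpt2, an antagonist ligand of the endothelial Tie2 receptor, was at 24.6 and 169 CPM (2.78, 2.12 to 3.49), and in pericytes at 11.9 and 8.21 CPM. Ctgf, a matricellular target of TGF-β and YAP, was at 703 and 1597 CPM (1.18), and Bmpr2, a receptor for bone morphogenetic proteins, at 60.0 and 178 CPM (1.57). Lower were Tgfb3, at 191 and 42.6 CPM (-2.16, -2.78 to -1.59), and Id2, a target of bone morphogenetic protein signals, at 223 and 47.0 CPM (-2.24, -2.83 to -1.70). Id1 and Id3, of the same list, stayed within 2-fold, with log2 ratios of -0.28 and 0.66. Igfbp5, a binding protein of insulin-like growth factors, was at 522 and 260 CPM (-1.0).

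The small glucocorticoid list had a median of 0.25. At least 2-fold higher were 2 of its 9 measured genes (22.2%, against 9.66% of all genes), and 1 was lower (11.1%, against 9.65%). Its higher genes rested on few UMIs, with 4 and 39 for Fkbp5 and 7 and 18 for Zbtb16, both known glucocorticoid targets. Tsc22d3, another target, was at 83.6 and 36.7 CPM, below its B-cell level of 909 and 729 CPM.

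**Figure D3:**
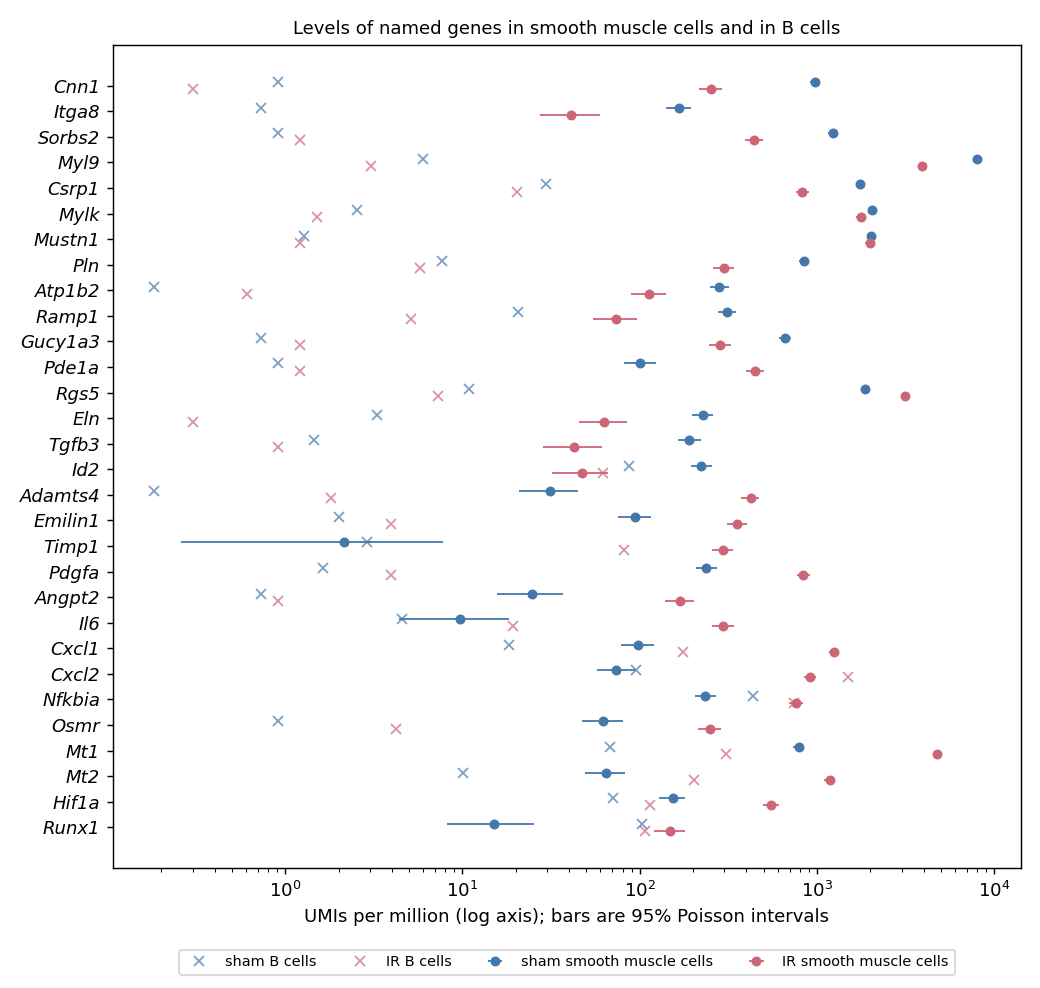
CPM on a log axis for named genes in VSMCs (filled points with 95% Poisson intervals) and in B cells (crosses), sham in blue and IR in red. Cnn1 was at 971 and 251 CPM, Adamts4 at 31.1 and 422 CPM with B cells near 1 CPM, while Cxcl2 lay below B cells in both libraries.

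Ranked over all genes rather than lists, the genes highest in IR relative to sham (by the interval bound nearest 0) were Timp1, Ifitm1, Serpina3n, Il6, Mt2, Gm26809, Cxcl1, Cxcl2, Adamts4, Gm20186, Cd248 and Phlda1. Ifitm1, an interferon-induced membrane protein, had 2 and 127 UMIs, with 105 CPM in IR B cells against 187 CPM in IR VSMCs. A single IR cell held 29.9% of its IR UMIs, and pericytes held more of it, at 804 CPM in sham and 1113 CPM in IR. Serpina3n, an acute phase protease inhibitor, had 1 and 75 UMIs, with 20.6 CPM in IR B cells against 110 CPM. Cd248, endosialin of mural cells and fibroblasts, was at 15 and 167 CPM (3.48, 2.68 to 4.40) with 1.82 CPM in IR B cells.

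The lowest by the same rule were Ly6c2, Plac8, Ifi27l2a, H2-Eb1, H2-Ab1, Ly6e, Ly6a, Hist1h2bc, H2-Aa, Dact3, Fkbp4 and Bst2. Several of these are leukocyte genes, and of the 12 all except Hist1h2bc, Dact3 and Fkbp4 were higher in sham B cells than in sham VSMCs. Ly6c2, a monocyte gene, had 154 and 1 UMIs, and 1 cell held 50.0% of the sham UMIs. For H2-Eb1, H2-Ab1 and H2-Aa, class II antigen presentation genes, 1 cell held 75%, 63.8% and 67.0% of the sham UMIs. Ly6c2, Plac8, H2-Eb1, H2-Ab1 and H2-Aa changed sign when members were limited by genes, by UMIs or by other cells' markers, and their values are not read as VSMC expression. Bst2 and Ifi27l2a were found in 39.7% and 37.4% of sham members, and 1 cell held 10.7% and 16.6% of their UMIs. For Dact3, Hist1h2bc and Fkbp4, no sham cell held more than 4.46% of the UMIs. Dact3, a modulator of Wnt signals, was at 120 and 14.7 CPM (-3.03, -4.13 to -2.10), Hist1h2bc, a histone gene, at 198 and 23.5 CPM (-3.08) and Fkbp4, a co-chaperone of steroid receptors, at 197 and 29.4 CPM (-2.75).

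VSMCs were compared first with pericytes, the other mural cells. Of 6548 genes compared, 373 (5.7%) were at least 2-fold higher in VSMCs than in pericytes in both libraries and 965 (14.7%) at least 2-fold lower. Pericytes were selected with less than 0.5% of Acta2, Myh11 and Tagln, so a difference in contractile genes partly follows from the choice of cells. Sorbs2 stood at 1228 CPM in sham VSMCs and 2.55 CPM in sham pericytes, Myl9 at 8041 and 188 CPM, and Mustn1 at 2018 and 11.9 CPM. Beyond the contractile set, the laminin subunit gene Lama5 was at 118 CPM in sham VSMCs and 0 UMIs in sham pericytes, and at 128 and 2.05 CPM in IR. Itih4, a secreted inhibitor family protein, was at 195 and 284 CPM in VSMCs and at 0 UMIs in pericytes of both libraries. Rbm24, a muscle splicing factor, was at 142 and 109 CPM in VSMCs against 0.849 and 2.05 CPM.

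Genes lower in VSMCs than in pericytes were Col5a3, a collagen chain, at 1.07 CPM in sham VSMCs and 180 CPM in sham pericytes, and Hic1, a transcriptional repressor, at 2.14 and 232 CPM. P2ry14, a receptor for nucleotide sugars, was at 8.57 and 8.82 CPM in VSMCs and 311 and 216 CPM in pericytes. Some shared mural genes were closer. Notch3 was at 444 CPM in sham VSMCs and 583 CPM in sham pericytes, and Gucy1a3 at 660 and 664 CPM. Rgs5, also a mural gene, was more than 2-fold lower in sham VSMCs, at 1853 and 8732 CPM. The log2 ratio of VSMCs over pericytes was 5.50 in sham and 4.86 in IR for Pln. Cnn1 had 0 UMIs in IR pericytes.

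**Figure D4:**
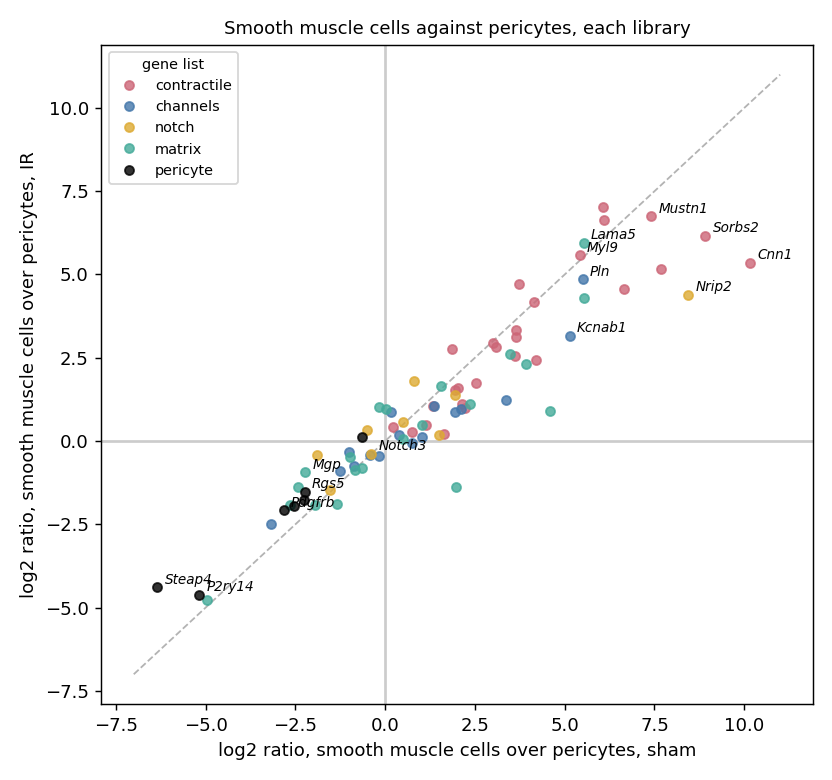
Log2 ratio of VSMCs over pericytes in sham (horizontal) and IR (vertical) for genes of 4 lists and for pericyte markers not used in selection; dashed line, equal ratios. Contractile genes such as Mustn1, Sorbs2 and Myl9 lie at the upper right in both libraries (Sorbs2 and Cnn1 had 0 UMIs in IR pericytes and are drawn at a bound there), Notch3 near 0, and Rgs5 and P2ry14 at the lower left.

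Against fibroblasts, 963 of 11671 genes (8.25%) were at least 2-fold higher in VSMCs in both libraries and 1384 (11.9%) lower. Olfr558, an olfactory receptor gene also found in vessels, was at 421 and 400 CPM in VSMCs and below 1 CPM in fibroblasts. Sncg, γ-synuclein, was at 1012 and 771 CPM against 1.33 and 0.294 CPM, and Dpep1, a membrane dipeptidase, at 2.14 and 1.47 CPM against 770 and 735 CPM. Against endothelial cells, 635 of 6842 genes (9.28%) were higher and 1023 (15%) lower. Tpm2 was at 10233 and 5548 CPM in VSMCs against 19.2 and 10.5 CPM, and Kdr, the main receptor of VEGF, at 3.21 and 1.47 CPM against 780 and 466 CPM. Selection set part of these differences too, since the marker genes of each class chose its cells.

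VSMCs varied among themselves in Rgs5, which took 0% to 2.47% of UMIs in sham cells and 0% to 1.67% in IR cells, and was at 0 in 72 sham and 20 IR members. A cut at 0.05% of UMIs, set after these values were seen, split the members into Rgs5-low cells, 87 of 214 in sham (40.7%, 34.0% to 47.6%) and 25 of 73 in IR (34.2%, 23.5% to 46.3%), and Rgs5-high cells. The cut divides a range and not types, and 16 sham and 3 IR cells lay near it, between 0.025% and 0.1%. The shares of Rgs5-low cells overlapped between the libraries. Depth differed with the split in sham, with a median of 5731 UMIs in low and 2992 in high cells, and little in IR, with 8876 and 8841.

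Rgs5-low cells had more Ptgis, Eln, Actg2 and Cnn1 in both libraries. Ptgis, prostacyclin synthase, was at 635 CPM in low and 2.37 CPM in high cells of sham, and at 425 and 41.1 CPM in IR. In sham, Eln was at 383 CPM in low and 35.6 CPM in high cells, against 124 and 29.7 CPM in IR, and Actg2, the enteric actin, at 592 and 47.4 CPM, against 429 and 103 CPM in IR. Cnn1 had 1588 and 221 CPM in the sham cells, while the IR cells had 425 and 155 CPM. Rgs5-high cells had more of Higd1b, which is also a pericyte marker, and of Ano1, Olfr78 and Casq2. Higd1b, a hypoxia-inducible mitochondrial protein, was at 351 CPM in high and 56.7 CPM in low cells of sham, and at 235 and 37.1 CPM in IR, Ano1 at 154 and 9.77 CPM in sham, and Olfr78, an olfactory receptor gene, at 178 and 37.1 CPM in sham. Casq2, the calcium buffer of the sarcoplasmic reticulum, was at 273 CPM in high and 68.4 CPM in low cells of sham, against 121 and 28.9 CPM in IR.

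The IR to sham ratio of several genes differed in size between these cells, though the difference was not tested. Over 27 contractile genes with at least 100 CPM, the median ratio was -0.70 in Rgs5-low cells, with 10 at least 2-fold lower, and -0.33 in Rgs5-high cells, with 1 at least 2-fold lower. Of all 1612 genes at that level, 13.2% were at least 2-fold lower in Rgs5-low cells and 8% in Rgs5-high cells. Cnn1 had -1.90 (-2.21 to -1.61) in low and -0.51 (-0.98 to -0.04) in high cells. Adamts4 rested on the high cells, at 40.3 CPM in sham and 634 CPM in IR, against 23.4 and 37.1 CPM in low cells. Angpt2 had 13.7 and 289 CPM in low and 38.0 and 103 CPM in high cells, and Thbs1, a matricellular protein, 1704 and 2483 CPM in low and 109 and 735 CPM in high cells. Atf3 was at 905 and 116 CPM in low cells and at 524 and 440 CPM in high cells. Shared by both were Mt1, with 2.86 and 2.62, Mt2, with 4.23 and 4.53, and Pdgfa, with 2.05 and 1.68. Il6 had 3.78 in low and 5.70 in high cells, with wide intervals of 2.53 to 5.31 and 4.13 to 7.99.

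**Figure D5:**
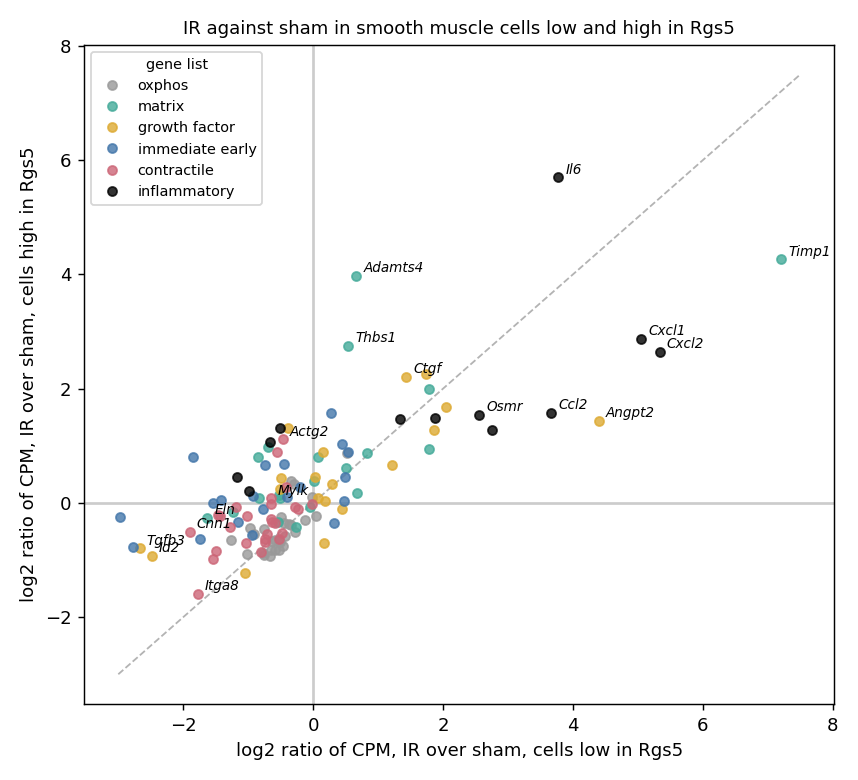
Log2 ratio of CPM, IR over sham, in Rgs5-low (horizontal) and Rgs5-high (vertical) VSMCs for genes of 6 lists; dashed line, equal ratios. Cnn1 and Eln lie farther below 0 in low cells, Adamts4 and Il6 are higher in high cells, and Timp1, which had 0 UMIs in sham high cells and is drawn there at a bound, is higher in IR in both.

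Clustering within each library, with the selection genes left out, gave 5 groups of 61, 48, 44, 42 and 19 cells in sham and 4 groups of 22, 21, 17 and 13 cells in IR. The groups were read only by leading genes and stay unnamed. In sham, the group of 48 cells led with Ogn, Ptgis and Thbs1, and the group of 61 cells held more Ndufa4l2, Olfr78, Ano1 and Rgs5 than the other sham members, with Rgs5 at 4202 CPM against 1399 CPM. That group of 61 also led with the cardiomyocyte genes Myl3 and Myl2, each in 8.20% of its cells, Mb in 14.8% and Tnnt2 in 41.0%, and Tnnt2 was found in 20.3% of the other sham members. The group of 42 sham cells led with Plac8, Lyz2 and Ly6c2, leukocyte genes that 9.52%, 33.3% and 14.3% of its cells held.

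In IR, Il6 and Adamts4 were concentrated in the group of 22 cells, which led with Apold1, an early-response gene of vessels. Il6 stood at 743 CPM there, and at 173, 12.8 and 12.4 CPM in the other groups, while 63.6% of the 22 cells held an Il6 UMI. Adamts4 stood at 945 CPM in that group, in 90.9% of its cells, and at 104, 378 and 37.2 CPM in the others. Timp1 had another pattern, at 188 CPM in that group and 627 CPM in the group of 21 cells that led with Ptgis. The group of 17 cells led with the myeloid genes Ccl4, Retnlg and Wfdc17, which 35.3%, 23.5% and 23.5% of its cells held. Of the other IR members, 39.3%, 12.5% and 19.6% held them. Atf3 was at 956 CPM in the group of 17, in 100% of its cells, and was found in 39.3% of the other IR members. Eln was at 160 CPM in the group led by Ptgis and at 0 UMIs in the group led by Apold1.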

How the data were processed

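Single-cell RNA sequencing libraries of left ventricular cells were made with 10x Chromium reagents. The UMI counts used here are the raw whole numbers that the authors deposited, 1 matrix of genes by barcodes per condition, and the processing notes name Cell Ranger and mm10. The depth behind each sum is 933418 UMIs in the 214 sham members and 680639 in the 73 IR members. UMIs of the members were summed per library and gene and scaled to CPM by the members' total. The log2 ratio is IR over sham, with an exact conditional binomial interval, CPM has an exact Poisson interval and shares have an exact Clopper-Pearson interval, all at 95% and for counting error only. A gene was measured with at least 20 UMIs over both libraries, and a library at 0 was set to 3 UMIs for a bound. With 1 library per condition no test was made, and 2-fold marks size only.

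Pericytes, fibroblasts, endothelial cells and B cells were chosen on their own markers under the same limits on other cells' genes, with pericytes needing at least 4 pericyte UMIs, fibroblasts at least 0.5% Dcn and Col3a1, endothelial cells at least 2 Cdh5 UMIs and B cells at least 3 Cd79a and Cd79b UMIs. Pericytes and B cells had less than 0.5% of UMIs on Acta2, Myh11 and Tagln. Fibroblasts, endothelial cells and B cells had 0 UMIs of Myh11. There were 546, 3386, 170 and 1290 of them in sham and 94, 1351, 90 and 737 in IR. Members were clustered within each library (1000 variable genes, 15 components, 15 neighbours, Leiden resolution 0.8), leaving out selection genes. No doublet caller was run, and members have no upper limit on genes. Thinned shares are the expected share of cells with at least 1 UMI at 1000 UMIs per cell. Genes were named if a list member had at least 100 CPM in a library, or was among the 12 with the largest or smallest ratio by the interval bound nearest 0 (at least 100 CPM in a library, other cells' markers left out), or among the 12 most different from pericytes or the other classes. Genes below 100 CPM are named only in a list with fewer than 5 above it or where a statement needs them. The members, the 14 gene lists and the 11 marker lists were chosen with earlier results of these data known. Coordinates are from GENCODE M21 and promoters from RefSeq (GRCm38.p6). The scripts were tested on simulated counts. Versions were scanpy 1.11.5, leidenalg 0.10.2, scipy 1.17.1, matplotlib 3.10.9, pandas 2.3.3 and numpy 2.4.6 under Python 3.11.15. The 14 alternatives, 3 of them added after seeing the data, are given in the closing section. Results for some genes are not reported here.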

Additional observations from a re-analysis of the deposited data

How the results depend on the processing

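No paired analysis was possible because the samples share replicate numbers 1 to 4 in the labels but no barcode names its sample, and for the same reason no replicate could be left out. Of 357 recomputed values over 14 alternatives, 310 stayed within a set limit, 46 moved and 1 reversed. For a list median the limit was the median half-width of its genes' intervals, so a median near 0 could change sign within it. With at least 1 UMI per gene, 1330 genes were higher and 1405 lower past 2-fold, and with at least 100 UMIs 170 and 169. With at most 2500 genes per cell, 31 IR members remained, the medians were -0.87 for contractile, -0.97 for heat shock, -0.98 for immediate early and 1.19 for inflammatory genes, and 173 and 562 genes were higher and lower than in pericytes, 363 and 780 than in fibroblasts and 303 and 409 than in endothelial cells, with Il6 in 4.45% of thinned IR cells. With at most 10% mitochondrial UMIs, 121 sham and 10 IR members remained, the medians were -1.32 for contractile, -0.19 for matrix, 0.37 for Notch and -0.060 for modulated genes, a reversed sign, and 134 and 479 genes were higher and lower than in pericytes, 181 and 558 than in endothelial cells and 572 lower than in fibroblasts. The thinned IR shares were then 43.7% for Il6, 56.7% for Mt2, 4.21% for Cnn1 and 9.07% for Pln. Thinned to 2000 UMIs, Cnn1 was expected in 55.6% and 29.8% and Pln in 74.5% and 35.7% of sham and IR cells. Among added alternatives, members with 3000 to 9000 UMIs numbered 133 and 29, with medians of -0.86 for contractile, -0.35 for immediate early and 1.15 for inflammatory genes, 231 genes higher than in pericytes, 404 higher than in endothelial cells, and thinned shares of 47.7% for Cnn1 in sham and 28.5% for Mt2 in IR. Without the sham cluster led by Ogn, 166 sham members and all 73 IR members remained, the modulated median was 0.88 and Cnn1 was expected in 26.6% of thinned sham cells. The cause of these moves was not tested. Over all alternatives the contractile median stayed between -1.32 and -0.49 and the inflammatory median between 1.15 and 1.94, while the immediate early (-0.98 to 0.11), matrix, Notch, modulated and regulator (-0.16 to 0.27) medians changed sign.

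Of 77 named or listed genes past 2-fold, 6 changed sign and 35 fell under 2-fold in some alternative. Among them, Nid1, at 43.9 and 106 CPM in the members, changed sign with at most 2500 genes and with 3000 to 9000 UMIs. Myl9, Smtn, Csrp1 and Ppp1r14a fell under 2-fold without the Ogn cluster, as did Sorbs2, Synpo2, Jun, Atf3, Hspa8 and Pdgfrb, whereas Cnn1 and Itga8 did not in any alternative. Hif1a, Stat3, Gucy1a3, Pde5a, Rock2, Atp1b2, Nrip2, Ctgf, Anxa2, Fosl2 and Hspb7 fell under 2-fold with 3000 to 9000 UMIs, Cryab with at most 2500 genes, Hsph1 with at most 10% mitochondrial UMIs and Igfbp5 with at least 3 Myh11 UMIs. With 73 IR cells in 1 library, a gene under 20 UMIs could not be compared, and differences between animals could not be told apart from differences between conditions.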
